A study of Mesocricetus auratus with 6 samples.

Results

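The endoplasmic reticulum (ER) folding and secretion genes were read in uteri of Syrian golden hamsters on day 5 of pregnancy. Uterus holding an implanting embryo (implantation sites) was compared with uterus between embryos that holds none (interimplantation sites), 3 arrays per group. The members were 44 genes named by their function, chosen with earlier results of these data known. Every probe set that the platform annotation assigns to exactly 1 of them was taken. This gave 74 probe sets of 41 genes, out of 22215 probe sets and 11963 genes in all. DNAJB11, SEC61G and SYVN1 were not analysed here, and 2 probe sets that list HSP90B1 together with a second gene were left out. All animals were untreated, no strain, age or allele is labelled, and every piece of tissue was a mixture of uterine cell types. The arrays are labelled as biological replicates, and the RNA came from 3 animals. If 3 animals gave all arrays of both groups, some arrays shared an animal, but which ones did so is not stated. The fit described below took every array as independent, and a fit with the replicate number as block is an alternative.

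Proteins that are secreted, or built into membranes, are threaded into the ER through the Sec61 channel as they are made. The signal recognition particle brings the ribosome there, signal peptidase trims the signal sequence, and oligosaccharyltransferase adds sugar chains to asparagines. Chaperones and disulfide isomerases then fold the chain, and chains that fail to fold are passed back to the cytosol for degradation. When unfolded chains pile up, the sensors ERN1 (IRE1), EIF2AK3 (PERK) and ATF6 raise the output of chaperone genes and slow translation, a programme called the unfolded protein response. In the implanting uterus, stromal cells turn into decidual cells, which are known for heavy secretion of hormones, growth factor binding proteins and matrix.

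Hamster RNA was read with probes designed on human transcripts. A dim probe set can therefore mean a poor sequence match as well as little transcript, and levels of different genes cannot be compared. Each value is log2 on the scale of RMA, a method that corrects background, gives all arrays the same distribution and joins the probes of a set into 1 value. Each difference is the mean of implantation sites minus the mean of interimplantation sites in log2 units, with its standard error (SE) from the linear model of limma. A probe set or gene was called at a Benjamini-Hochberg adjusted p under 0.05 in that fit, over all 22215 probe sets or over all 11963 genes, with the brightest probe set standing for its gene. Adjusted p-values of members below are those of limma's fit over all probe sets unless the fit over genes is named. Weaker differences are counted at the unadjusted threshold, an unadjusted p of limma under 0.05. The median probe set had a mean of 4.19 over the 6 arrays.

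Few members were called, and those that were called were higher at implantation sites. A missing call does not show that a member was unchanged. In simulated data over genes, 41.7% of the genes given the smallest change were recovered. HSPA5, the ER chaperone BiP, was called higher, and so was 1 of the 3 probe sets of RPN2, a subunit of oligosaccharyltransferase. Of the 74 member probe sets these 2 were called higher, or 2.70%, against 0.702% of all probe sets. No member probe set was called lower (0 of 74), against 0.356% of all probe sets. At the unadjusted threshold 15 of the 74 were higher, or 20.3%, against 5.27% of all probe sets, and 0 were lower, against 5.23%. The 2 groups of arrays were apart in 12 of the 74 with implantation sites higher, against 7.72% of all probe sets, and in 3 with implantation sites lower, against 8.3%. Since the members were chosen with earlier results known, these shares and those over genes describe the list and do not test it.

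Over genes, HSPA5 was the 1 of 41 called higher, or 2.44%, against 0.777% of all genes, and 0 were called lower, against 0.46% of all genes. At the unadjusted threshold 10 of 41 genes were higher, or 24.4%, against 5.68% of all genes, and 0 were lower, against 5.22%. These were HSPA5, PDIA3, HYOU1, PDIA4 and HSP90B1 among the chaperones, XBP1 among the stress genes, SPCS2 and SEC61B at the translocon, and RPN2 and DAD1 in glycosylation. In 8 genes, or 19.5%, every implantation array lay above every interimplantation array, against 8.36% of all genes, and in 0 every one lay below, against 8.09%. The median difference over the 41 genes was 0.10, against −0.01 over all 11963 genes. Of the 41, 31 were above 0, or 75.6%, against 47.6% of all genes.

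Several measured facts moved with these groups. Interimplantation site 1 held the lowest value of the 6 arrays in 20 of the 41 genes, or 48.8%, against 18.8% of all genes. Without it the median over the members was 0.07. The actin probe set of the 3′ end relative to that of the 5′ end, a measure of RNA quality, was −2.08 ± 0.22 at implantation sites and −1.70 ± 0.15 at interimplantation sites (log2, SD, n = 3 arrays each; two-sided exact permutation p = 0.1, the smallest that 3 against 3 arrays allow). The same ratio of GAPDH was −0.20 ± 0.16 at implantation sites and 0.13 ± 0.17 at interimplantation sites, with overlap (exact permutation p = 0.2). The spiked hybridisation controls bioB, bioC, bioD and cre had differences of −0.36 to −0.28, with overlap (exact permutation p of 0.3 to 0.4). Interimplantation site 1 held the highest value of each of these controls. Levels averaged over 8 smooth muscle markers were 5.13 to 5.19 at implantation sites and 5.35 to 5.48 at interimplantation sites, and ACTG2, TAGLN and MYLK among them were called lower in the fit over genes. Of the other smooth muscle markers, CNN1 was at −0.23, DES at −0.02, MYH11 at 0.00, LMOD1 at 0.10 and ACTA2 at 0.15, none of them called, and ACTA2 was higher at all implantation sites than at any interimplantation site. Over 9 epithelial markers the averages were 4.21 to 4.30 at implantation sites and 4.37 to 4.43 at interimplantation sites, and over 7 endothelial markers 4.14 to 4.16 at implantation sites and 4.22 to 4.26 at interimplantation sites. Of these markers 2 epithelial and 1 endothelial had differences above 0, and none of either list was called in the fit over genes. Averages over 3 uterine, 8 stromal and decidual, 7 leukocyte, 7 plasma cell and 8 trophoblast and embryo markers overlapped between the groups, although SPI1 among the leukocyte markers was called lower. The part of RNA quality, of hybridisation and of tissue makeup in the results below was not tested. In such pieces of tissue more cells of a type and more RNA per cell cannot be told apart. Of the uterine markers ESR1 and HAND2 lay above the median brightness, PGR below it (3.22 at implantation sites and 3.34 at interimplantation sites), and HOXA10, HOXA11 and NR2F2 were not analysed here.

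The folding chaperones held HSPA5, the member of smallest p in limma's fit over genes. In the fit over probe sets, a probe set of RPN2 had a smaller p. HSPA5, which binds unfolded chains and keeps the sensors silent, had 3.62, 3.74 and 3.88 at implantation sites, against 3.23, 3.28 and 3.42 at interimplantation sites. Every implantation array lay above every interimplantation array. HSPA5 rose 1.35-fold (95% interval 1.18 to 1.54, log2 0.43 ± 0.09 SE, adjusted p = 0.0447 over probe sets and 0.0392 over genes). Its 1 probe set was dim, below the median, at the 34.6th percentile of brightness. The call was near the threshold: over probe sets it was missed whichever array was left out (adjusted p of 0.0537 to 0.194), and over genes it held only without implantation site 1 (0.0415), while the difference stayed between 0.37 and 0.50.

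**Figure D1:**
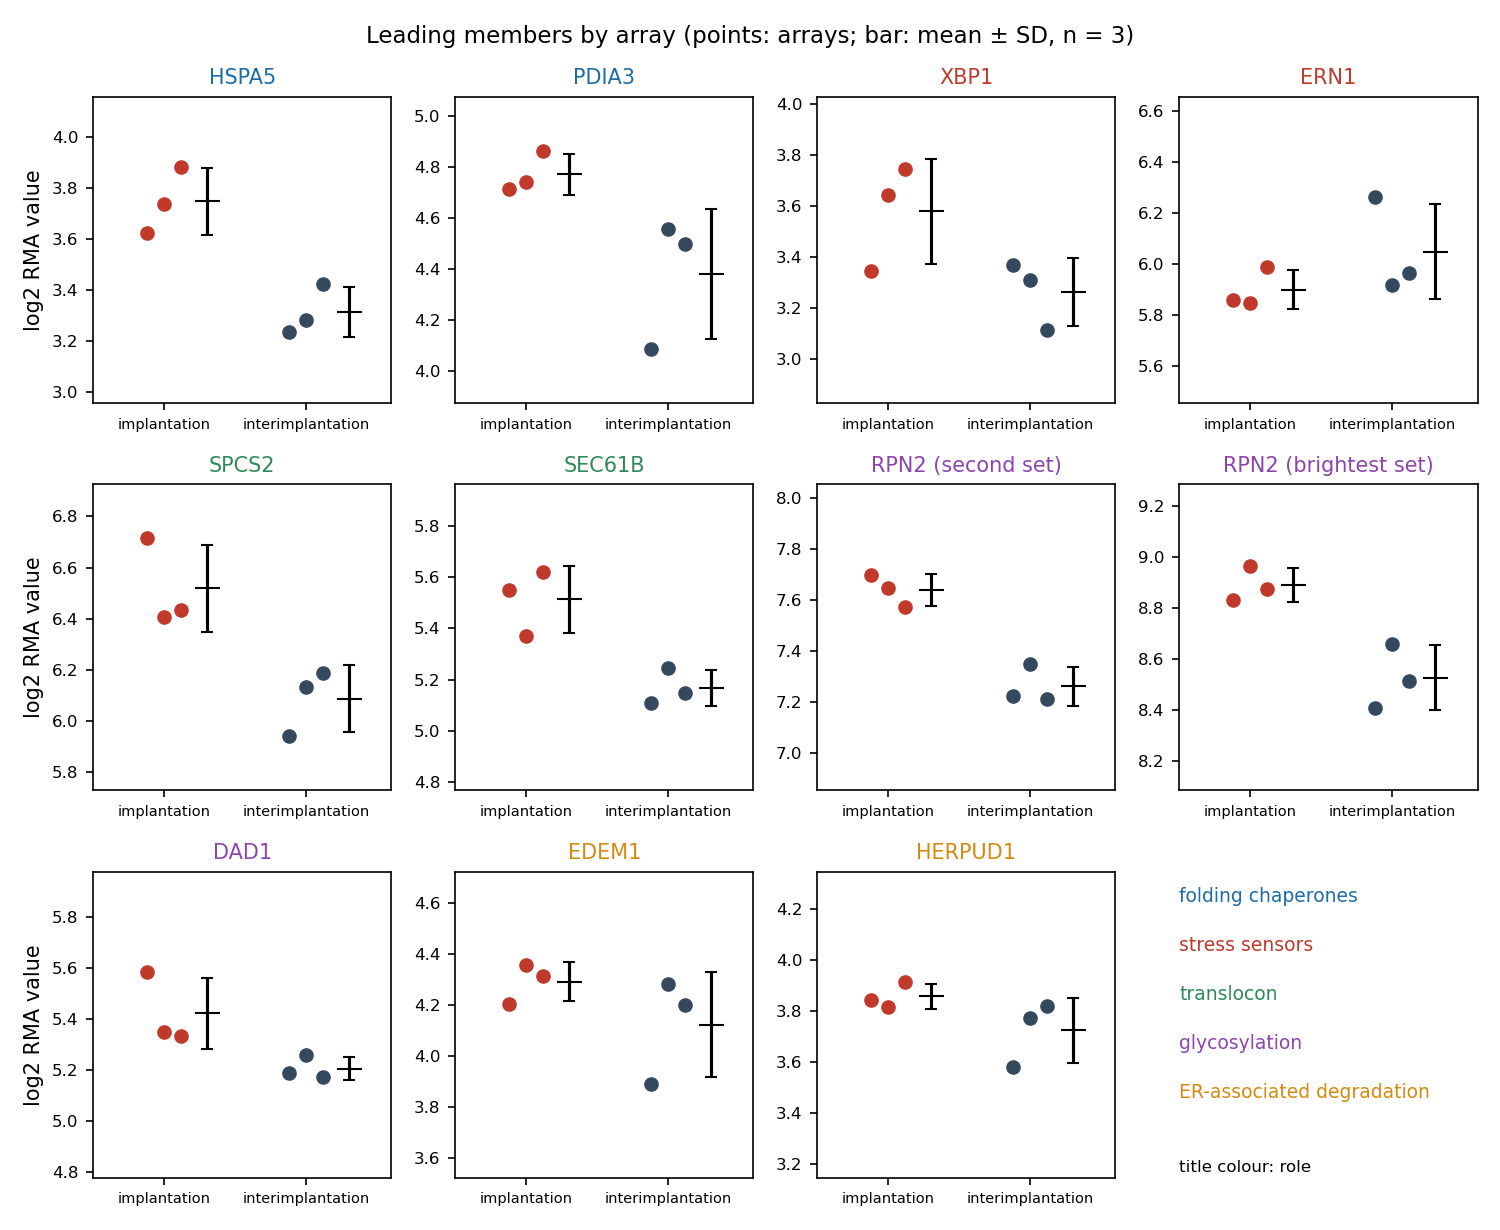
Log2 RMA values by array for the 2 members of smallest p in each role and both leading probe sets of RPN2, with implantation sites left in red and interimplantation sites right in dark blue, bars for the mean ± SD of 3 arrays, and vertical axes of the same span with different starts. HSPA5, PDIA3, SPCS2, SEC61B, RPN2 and DAD1 show no overlap between the groups, while XBP1, ERN1, EDEM1 and HERPUD1 overlap.

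PDIA3, the disulfide isomerase that works with calnexin and calreticulin on glycoproteins, had 4.71, 4.74 and 4.86 at implantation sites, against 4.09, 4.56 and 4.50 at interimplantation sites. The groups did not overlap, and interimplantation site 1 lay furthest from the others. The difference was 0.39 ± 0.11 SE and was not called (adjusted p = 0.186). HYOU1, a large chaperone that exchanges the nucleotide of BiP, had 5.84, 5.80 and 5.71 at implantation sites, against 5.37, 5.65 and 5.50 at interimplantation sites. Here too the groups were apart, without a call (0.27 ± 0.09 SE, adjusted p = 0.244). PDIA4, another disulfide isomerase, had 5.61, 5.27 and 5.28 at implantation sites, against 5.19, 5.08 and 5.11 at interimplantation sites, with the highest value at implantation site 1. Its difference of 0.26 ± 0.10 SE was not called (adjusted p = 0.346). HSP90B1, the HSP90 of the ER, had 4.47, 4.48 and 4.25 at implantation sites, against 4.29, 4.18 and 3.83 at interimplantation sites. These groups overlapped, since implantation site 3 lay below interimplantation site 1 (0.30 ± 0.12 SE, adjusted p = 0.362). A dimmer probe set of HSP90B1 was at 0.09, and both probe sets carry the suffix _x_at, for probes that can bind other transcripts.

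The other chaperones lay near 0, on both sides. CALR, the lectin chaperone calreticulin, had 6.48, 6.58 and 6.81 at implantation sites, against 6.80, 6.52 and 6.56 at interimplantation sites. The spread within each group was larger than the difference of −0.00, whose 95% interval of −0.23 to 0.23 includes folds of 0.853 to 1.17. CANX, its membrane-bound partner calnexin, was at 0.10, and all 3 of its probe sets lay between 0.10 and 0.17 with no call. PDIA6, P4HB (both disulfide isomerases, the second also a subunit of collagen prolyl hydroxylase) and PPIB (cyclophilin B, which isomerises prolines and assists collagen folding) were at 0.12, −0.16 and −0.08. Of these, PPIB was the brightest chaperone probe set, with means of 7.03 ± 0.03 at implantation sites and 7.10 ± 0.28 at interimplantation sites (SD, n = 3 each). DNAJB9 and DNAJC3, cochaperones of BiP that the unfolded protein response raises in other settings, were at 0.03 and −0.05. SDF2L1, found in complexes with ER cochaperones, had 5.27, 5.27 and 5.18 at implantation sites, against 5.17, 5.31 and 5.25 at interimplantation sites, a difference of −0.00 (95% interval −0.17 to 0.16). MANF, a secreted ER stress protein that binds BiP, was at 0.10, with a wide spread at interimplantation sites (5.96 to 6.49). Of the 14 chaperones measured, 1 was called higher and 0 lower over genes, against 0.777% and 0.46% of all genes, and the median was 0.10.

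**Figure D2:**
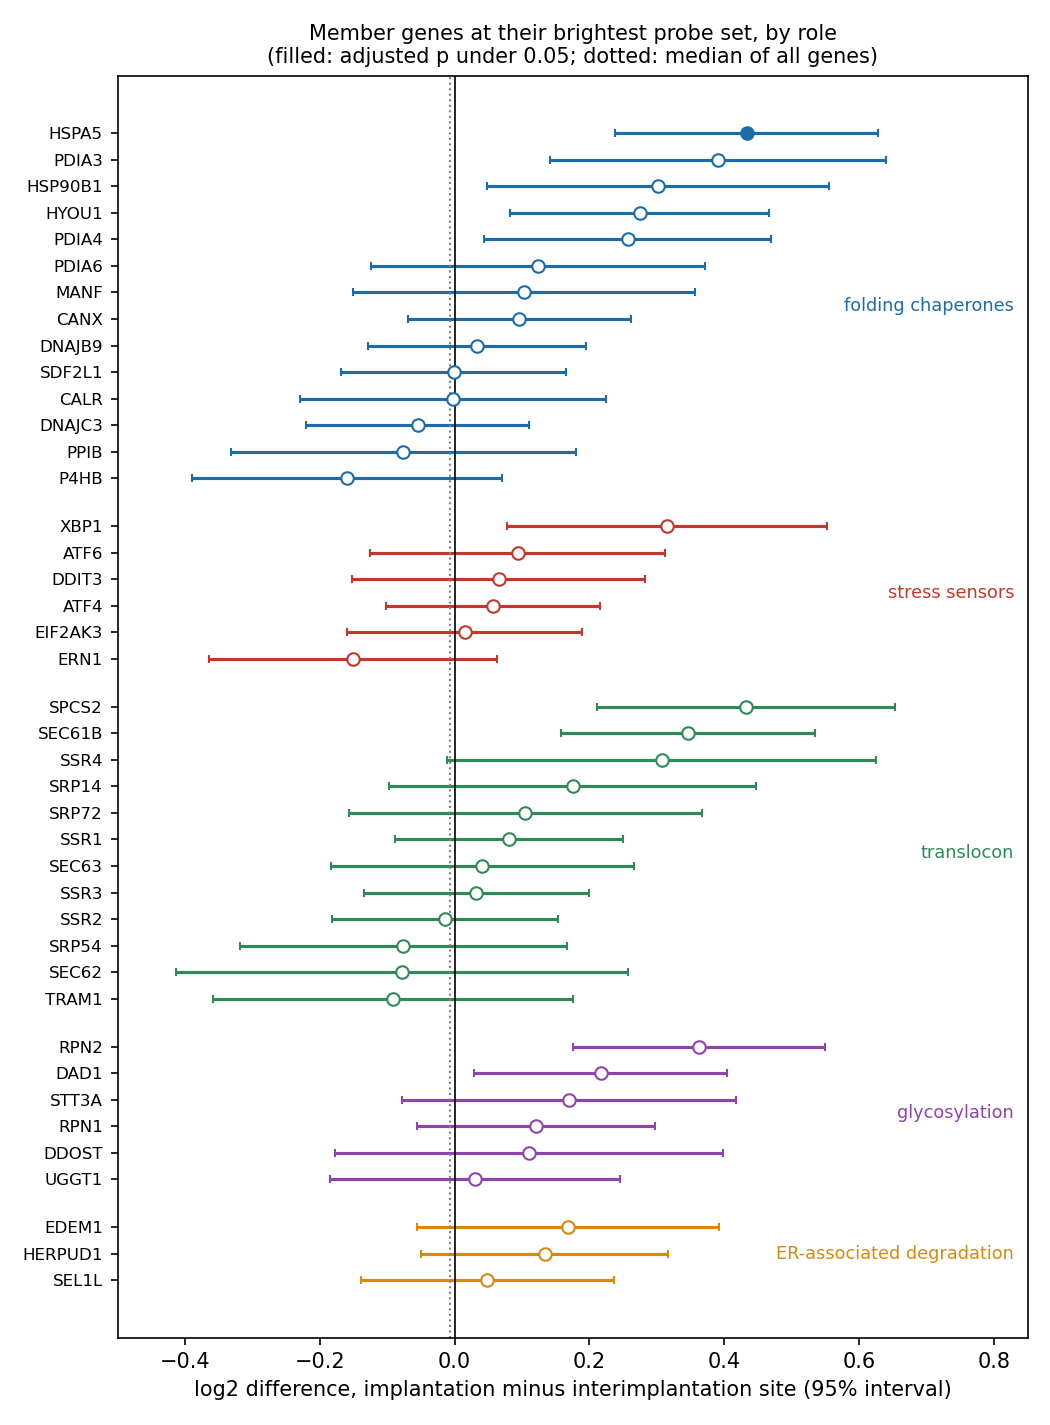
Log2 difference (implantation minus interimplantation sites) of each of the 41 measured members at its brightest probe set, with its 95% interval in the fit over genes, grouped by role, with a dotted line at the median of all genes, −0.01. The filled point, HSPA5, passed the adjusted threshold. Differences run from −0.16 for P4HB to 0.43 for HSPA5, and 31 of 41 lie above 0, against 47.6% of all genes.

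Among the stress sensors and their transcription factors no gene was called. XBP1, the factor that ERN1 activates by splicing its mRNA, had 3.35, 3.64 and 3.74 at implantation sites, against 3.37, 3.31 and 3.11 at interimplantation sites. Implantation site 1 lay at the level of the interimplantation sites, and the groups overlapped. The difference was 0.32 ± 0.11 SE (adjusted p = 0.290), at the 32.2nd percentile of brightness, and the probe set does not tell spliced from unspliced XBP1. ERN1, the sensor itself, had 5.86, 5.85 and 5.99 at implantation sites, against 6.26, 5.92 and 5.96 at interimplantation sites. Its difference of −0.15 ± 0.10 SE (adjusted p = 0.655) went with a single high array, interimplantation site 1.

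ATF4, the factor made when EIF2AK3 slows translation, had 6.67, 6.63 and 6.66 at implantation sites, against 6.59, 6.65 and 6.55 at interimplantation sites. Its 95% interval ran from 0.934-fold to 1.16-fold, the narrowest of the stress genes. DDIT3, the factor CHOP that prolonged ER stress induces, had 6.23, 6.26 and 6.24 at implantation sites, against 6.19, 5.96 and 6.38 at interimplantation sites. The implantation arrays lay within the range of the others, and the interval ran from 0.899-fold to 1.22-fold. ATF6, which is cut from the membrane to become a transcription factor, was at 0.09 and 0.11 at its 2 probe sets. EIF2AK3 was at 0.02, at the 9.80th percentile of brightness. Activation of these sensors runs through cleavage, splicing, phosphorylation and translation, which these arrays do not read.

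At the translocon, SPCS2 and SEC61B were the 2 of 12 genes whose groups did not overlap. Both were higher at implantation sites, or 16.7% of the 12, against 8.36% of all genes, and neither passed the threshold. SPCS2, a subunit of signal peptidase, had 6.72, 6.41 and 6.44 at implantation sites, against 5.94, 6.13 and 6.19 at interimplantation sites. The groups did not overlap, and the 1.35-fold difference (log2 0.43 ± 0.10 SE) had an adjusted p of 0.0798 over probe sets and 0.0683 over genes. A dimmer probe set of SPCS2 was at 0.14. SEC61B, the beta subunit of the Sec61 channel, had 5.55, 5.37 and 5.62 at implantation sites, against 5.11, 5.25 and 5.15 at interimplantation sites. These groups were apart as well, by 0.35 ± 0.09 SE (adjusted p = 0.0970). SSR4, a subunit of the translocon-associated complex that sits beside the channel, had 5.95, 5.51 and 5.63 at implantation sites, against 5.05, 5.53 and 5.60 at interimplantation sites. Its difference of 0.31 ± 0.15 SE (adjusted p = 0.50) came to 0.13 without interimplantation site 1.

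The remaining translocon genes were not called and lay on both sides of 0. The other subunits of the translocon-associated complex, SSR1, SSR2 and SSR3, were at 0.08, −0.01 and 0.03. SEC62 and SEC63, which help chains enter after translation, were at −0.08 and 0.04, and SEC62 had 4.67, 4.58 and 4.47 at implantation sites, against 5.09, 4.51 and 4.35 at interimplantation sites. Of the signal recognition particle, SRP14, SRP54 and SRP72 were at 0.18, −0.08 and 0.10. SRP14 was dim (means of 2.75 at implantation sites and 2.57 at interimplantation sites), and its difference went with a single value of 3.08 at implantation site 3. TRAM1, a membrane protein next to the channel, was at −0.09 at its brightest probe set and at 0.25 at the next. In all, 0 of 12 translocon genes were called in limma's fit over genes, 2 were higher and 0 lower at the unadjusted threshold (5.68% and 5.22% of all genes), and the median was 0.06.

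All 6 glycosylation genes lay above 0, against 47.6% of all genes. RPN2 had the brightest probe set of any member, with 8.83, 8.97 and 8.88 at implantation sites, against 8.41, 8.66 and 8.52 at interimplantation sites. The groups did not overlap, and the 1.29-fold difference (log2 0.36 ± 0.08 SE) had an adjusted p of 0.0792 over probe sets and 0.0699 over genes. The second probe set of RPN2 had 7.70, 7.65 and 7.57 at implantation sites, against 7.23, 7.35 and 7.21 at interimplantation sites. It was called higher, 1.30-fold (log2 0.38 ± 0.08 SE, adjusted p = 0.0428), but missed the threshold whichever array was left out (0.0621 to 0.162). The call was also lost in limma's fit with the replicate number as block (adjusted p = 0.0589). The third had 6.74, 6.67 and 6.58 at implantation sites, against 6.41, 6.42 and 6.53 at interimplantation sites, again with no overlap (0.21 ± 0.08 SE, adjusted p = 0.321). All 3 probe sets of RPN2 thus pointed one way, although the brightest came to 0.19 after repeated quantile normalization. The brightest carries the suffix _s_at, for probes shared between transcripts, and the other 2 carry _x_at, for probes that can bind other transcripts.

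DAD1, a small subunit of the same enzyme, had 5.58, 5.35 and 5.33 at implantation sites, against 5.19, 5.26 and 5.17 at interimplantation sites. The groups were apart by 0.22 ± 0.09 SE without a call (adjusted p = 0.375). STT3A, the catalytic subunit, was at 0.17 ± 0.11 SE, with 6.24, 5.85 and 5.95 at implantation sites, against 5.69, 5.83 and 6.01 at interimplantation sites. RPN1 and DDOST, further subunits, were at 0.12 and 0.11, with overlapping groups. DDOST had a low value of 6.25 at interimplantation site 1, against 6.87 and 6.70 at the other interimplantation sites and 6.65 to 6.82 at implantation sites. UGGT1, which puts a glucose back on misfolded glycoproteins and is no subunit of the enzyme, was at 0.03. The median over the 6 genes was 0.15, against −0.01 over all genes, and 0 of the 6 were called over genes in limma's fit, with 2 higher and 0 lower at the unadjusted threshold (5.68% and 5.22% of all genes).

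The 3 measured genes of ER-associated degradation overlapped between the groups. EDEM1, which marks misfolded glycoproteins by trimming mannose, had 4.20, 4.36 and 4.31 at implantation sites, against 3.89, 4.28 and 4.20 at interimplantation sites. HERPUD1, a membrane protein of the degradation complex, had 3.84, 3.82 and 3.91 at implantation sites, against 3.58, 3.77 and 3.82 at interimplantation sites. In both, interimplantation site 1 was the lowest array. Their differences were 0.17 ± 0.10 SE and 0.13 ± 0.08 SE (adjusted p = 0.625 and 0.635). SEL1L, the scaffold of the complex, was at 0.05. None was called in limma's fit over probe sets or over genes, and 0 passed the unadjusted threshold at the brightest probe set.

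**Figure D3:**
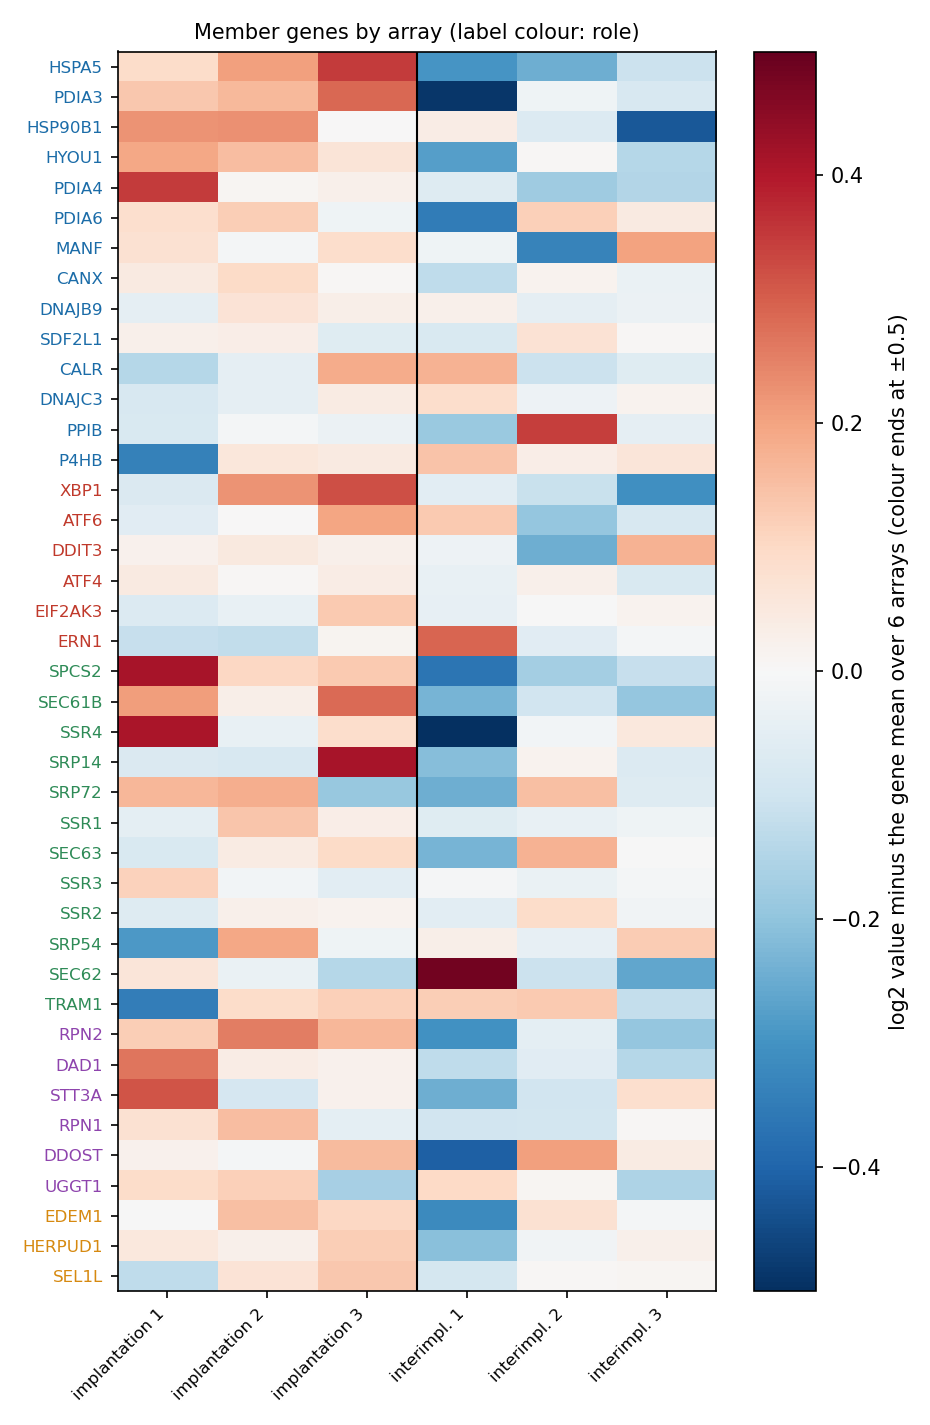
Log2 value of each member gene minus its mean over the 6 arrays, at its brightest probe set, with implantation sites left of the line and interimplantation sites right of it, red above the gene's mean and blue below it, and label colours by role. Interimplantation site 1 holds the deepest blue cells, SSR4 and PDIA3, and the deepest red one, SEC62.

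Arrays within a group differed by about as much as many of the members' differences, as the map of deviations by array shows. Interimplantation site 1 was lowest in 20 genes and highest in 4. Implantation site 2 was highest in 11 genes and lowest in 1, and implantation site 3 was highest in 10 and lowest in 2. Implantation site 1 went both ways, highest in 8 genes and lowest in 9. It held the top values of SPCS2, SSR4, PDIA4, DAD1 and STT3A, and the bottom values of P4HB, TRAM1 and SRP54. The median SE over the 41 genes was 0.0997, against 0.0858 over all genes.

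Probe sets of the same gene did not always point one way. Of 18 genes with several probe sets, 6 lay above 0 at all of them (HSP90B1, CANX, ATF6, SPCS2, RPN2 and DDOST), SEC62 lay below 0 at both of its own, and 11 had probe sets on both sides. None of the probe sets below 0 passed the unadjusted threshold. PDIA4 had opposite patterns, both without overlap: against 0.26 at the brightest, the second probe set had 4.98, 4.93 and 4.93 at implantation sites and 5.06, 4.98 and 5.01 at interimplantation sites, a difference of −0.07 ± 0.07 SE. TRAM1 had 4.86, 5.30 and 5.33 at implantation sites, against 5.33, 5.34 and 5.09 at interimplantation sites, at its brightest probe set. At the next it had 4.16, 3.93 and 4.01 at implantation sites, against 3.63, 3.94 and 3.80 at interimplantation sites, so that the sign of TRAM1 depends on the probe set. SEC63 was at 0.04 at the brightest and at −0.12 and −0.04 at the other probe sets. The first of these had 3.00, 3.08 and 3.06 at implantation sites, against 3.14, 3.15 and 3.22 at interimplantation sites. The second probe set of SEC62, at −0.12, had 3.07, 3.27 and 3.27 at implantation sites, against 3.35, 3.27 and 3.33 at interimplantation sites. With the second probe set of PDIA4 these are the 3 whose implantation arrays all lay below the interimplantation arrays, none of them past the unadjusted threshold.

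CALR was at −0.06 at its second probe set, and at 0.18 at another that was among the dimmest (2.24 ± 0.08 at implantation sites and 2.06 ± 0.07 at interimplantation sites, SD, n = 3 each). SRP72 had 6 probe sets, from −0.06 to 0.18, the highest of them at 0.18 ± 0.08 SE (adjusted p = 0.475). The 4 probe sets of SEL1L ran from −0.14 to 0.07, those of SSR1 from −0.05 to 0.10 and those of PDIA6 from −0.04 to 0.12. P4HB, PPIB and DNAJB9 lay within 0.05 of 0 at their second probe sets. Of the 33 probe sets that were not the brightest of their gene, 17 lay above 0 and 16 below, with a median of 0.00, and 26 of them were dimmer than the median probe set.

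**Figure D4:**
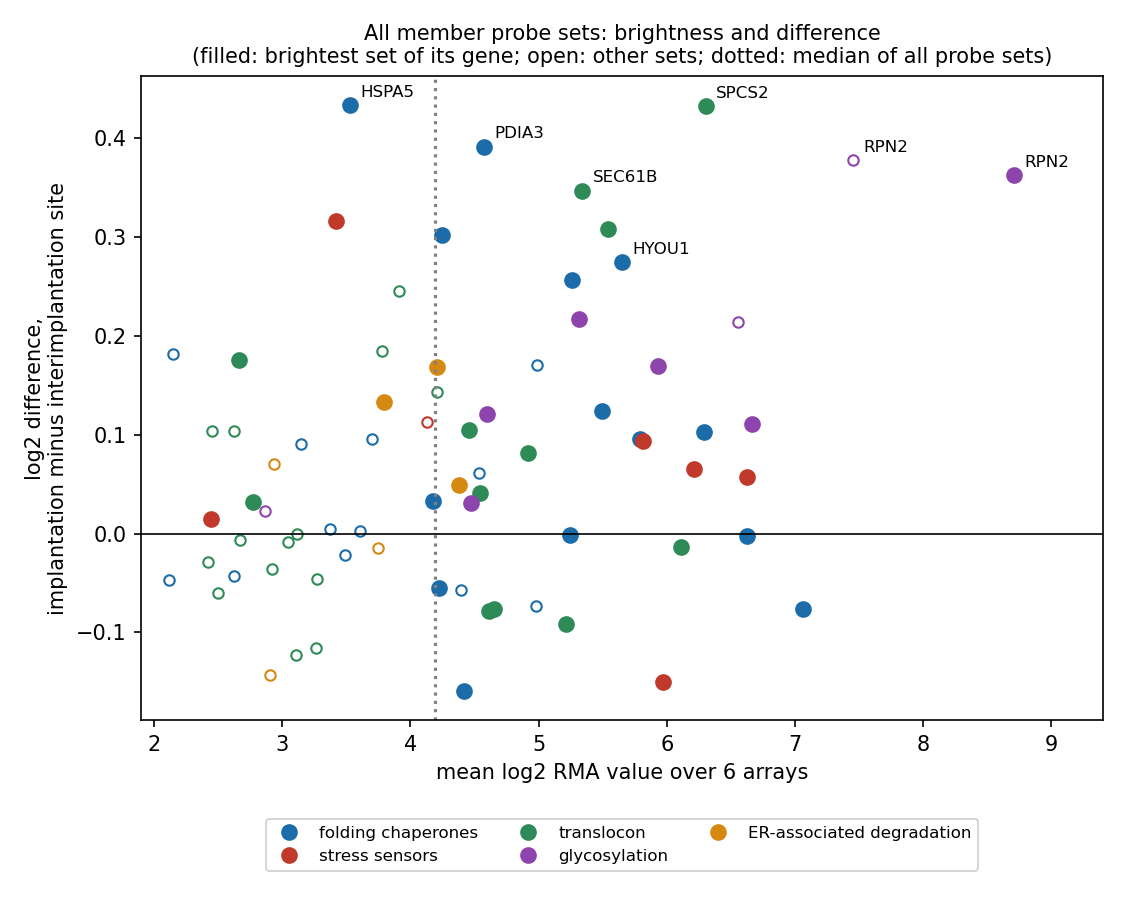
Log2 difference (implantation minus interimplantation sites) of all 74 member probe sets against their mean log2 RMA value over 6 arrays, coloured by role, with filled points for the brightest probe set of a gene, open points for its others and a dotted line at the median brightness of all probe sets, 4.19. HSPA5 stands high on the dim side, while SPCS2, SEC61B and RPN2 stand high on the bright side.

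The same pathway was read in 7 further lists with 126 genes, of which 108 were measured and are no members. Of these 2 were called higher in limma's fit over genes, against 0.777% of all genes, and 0 lower. At the unadjusted threshold 14 were higher and 1 lower, against 5.68% and 5.22% of all genes. Their median difference was 0.03. PRDX4, an ER peroxiredoxin that uses peroxide to drive disulfide formation, had 4.29, 4.26 and 4.43 at implantation sites, against 3.71, 4.07 and 3.67 at interimplantation sites. Every implantation array lay above every interimplantation array, and PRDX4 rose 1.42-fold (log2 0.51 ± 0.11 SE, adjusted p = 0.0445 over genes). TMED2, a cargo receptor of vesicles between ER and Golgi, had 5.19, 5.14 and 5.04 at implantation sites, against 4.57, 4.83 and 4.72 at interimplantation sites. It rose 1.33-fold (log2 0.42 ± 0.09 SE, adjusted p = 0.0425 over genes). In 5 of the 6 fits that leave out an array, each of these 2 calls was lost (PRDX4 at up to 0.185, TMED2 at up to 0.147). Both were also lost in limma's fit with the replicate number as block (adjusted p = 0.0565 for PRDX4 and 0.0570 for TMED2). TMED2 came to 0.19 with the mean of its probe sets and to 0.12 without those of suffix _x_at or _s_at, which mark probes shared between transcripts.

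Among 27 genes of ER to Golgi transport, 5 were higher and 0 lower at the unadjusted threshold, against 5.68% and 5.22% of all genes, with a median of 0.04. SAR1A, the GTPase that starts the vesicle coat, was at 0.29 ± 0.08 SE and not called (adjusted p = 0.152 over genes). Of 12 genes of collagen folding in the ER, 3 were higher at that level and 0 lower, read against the same shares. CRTAP and PLOD2, which hydroxylate collagen or take part in it, were at 0.31 ± 0.08 SE and 0.29 ± 0.09 SE (adjusted p = 0.106 and 0.156 over genes). PLOD1, a collagen lysyl hydroxylase, lay the other way at −0.19 without a call, with every implantation array below every interimplantation array. In the list of other degradation genes UBE2G2, a ubiquitin-conjugating enzyme, and VCP, the ATPase that pulls chains out of the ER, were at 0.34 and 0.35 (adjusted p = 0.145 and 0.360 over genes). Of the 12 genes in that list, 3 were higher and 0 lower at the unadjusted threshold, against 5.68% and 5.22% of all genes.

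The other lists held fewer such genes. Of 16 further chaperones and oxidoreductases, 2 were higher at the unadjusted threshold, against 5.68% of all genes. These were PRDX4 and FKBP2, a proline isomerase (0.20, adjusted p = 0.389 over genes). Of 15 further glycosylation genes DOLK, which makes the lipid carrier of the sugar chain, was at 0.26 (adjusted p = 0.356 over genes) and MAN1B1, a mannosidase, at −0.16 (adjusted p = 0.482 over genes), and the median was −0.01. The groups did not overlap in DOLK, higher at implantation sites, or in MAN1B1, lower there. At the unadjusted threshold 1 of the 15, DOLK, was higher and 0 were lower, against 5.68% and 5.22% of all genes. Of 14 further translocon genes the channel subunits SEC61A1 and SEC61A2 were at 0.16 and −0.22 (adjusted p = 0.504 and 0.373 over genes), and the median was 0.09. At the unadjusted threshold 0 of the 14 were higher and 1, SEC61A2, was lower, against 5.68% and 5.22% of all genes. Every implantation array of SEC61A2 lay below every interimplantation array. Among 12 further stress response genes none passed the unadjusted threshold (5.68% of all genes were higher and 5.22% lower), and the median was −0.05. CEBPB and CEBPG, transcription factors of the stress response, had the smallest p there and were the highest and the lowest of the 12, at 0.17 and −0.18 (adjusted p = 0.481 and 0.578).

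**Figure D5:**
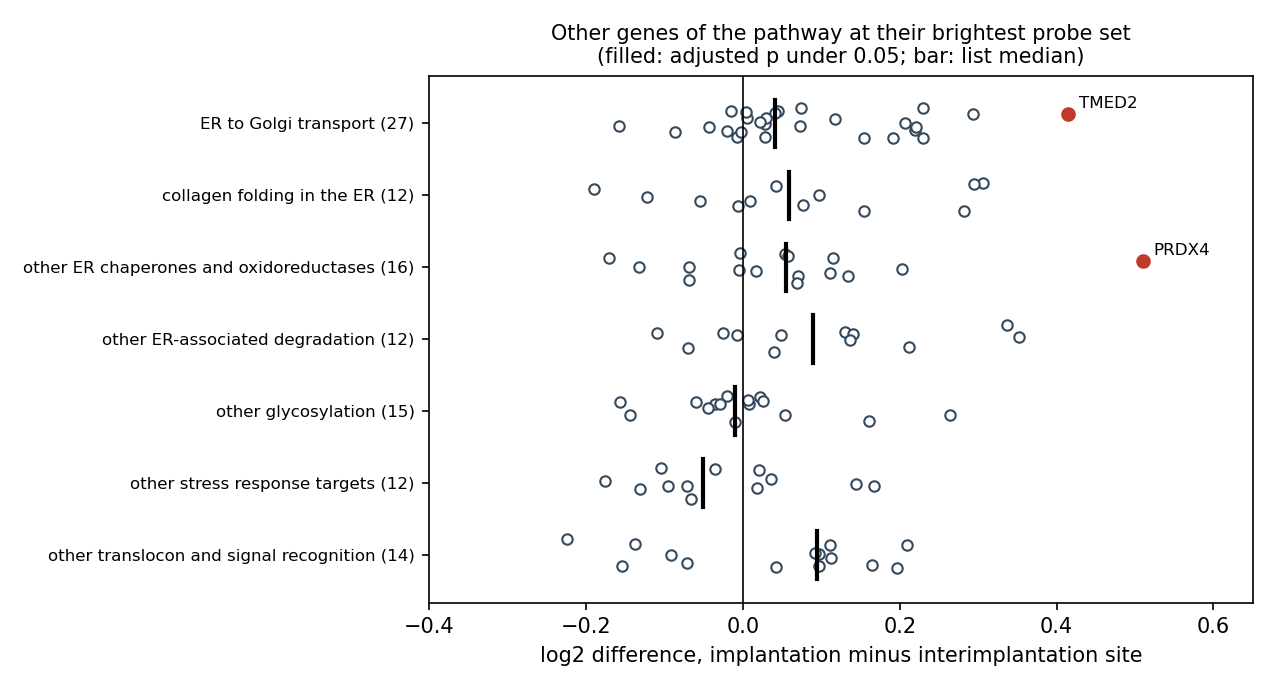
Log2 difference (implantation minus interimplantation sites) of the 108 measured genes of 7 further lists of the pathway, each at its brightest probe set, with genes per list in brackets and a vertical scatter that has no meaning. Filled points, TMED2 and PRDX4, passed the adjusted threshold over all genes, and bars are list medians, from −0.05 for the other stress response targets to 0.09 for the other translocon genes.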

How the data were processed

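Biotin-labelled RNA of uterine tissue was read on an Affymetrix human array. Each deposited value is a log2 signal of a probe set, and RMA and Partek 6.6 are named in the submitters' processing notes. The settings of RMA and the base of the log are not given, and values from 1.65 to 12.1 were taken as log2. Correlations between arrays were 0.989 to 0.995 within groups and 0.985 to 0.992 between them. No date or batch of an array was used here, so batches were not tested.

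Of 22283 probe sets 68 controls were dropped, and 19065 of the rest had 1 gene in the platform annotation, 1043 several and 2107 none. Of the 41 members 40 share their symbol with a hamster gene in RefSeq's BCM_Maur_2.0 table (SRP54 has none). The test was limma 3.58.1 in R 4.3.3, two-sided, with group as the only term, tested on simulated data first. Members and lists were chosen with earlier results of these data known. Degradation genes were made a role of their own. Values by array were to be given for probe sets past the threshold, the 2 smallest p of each role and all probe sets of genes with both signs; of the last, most are given as differences, and further members were added. Of the other lists, genes past the threshold and the 2 smallest p were named; PLOD1 was chosen after its values were seen. Alternatives were other normalizations, brightness filters, dropping suffixed probe sets, a trended spread, array weights, a replicate block, averaging the probe sets per gene and leaving out each array. The number of arrays limits the precision.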

Additional observations from a re-analysis of the deposited data

How the results depend on the processing

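No member was called lower under any alternative, and the median over all members stayed above 0. Member probe sets called higher, 2 in the fit of all arrays, came to 1 above the median brightness, 0 without probe sets of suffix _x_at or _s_at, and 0 whichever array was left out. Member genes called higher, 1 in that fit, came to 0 under both of these filters and to 0 to 1 when an array was left out. HSPA5 is dimmer than the median, and without the suffixed probe sets its adjusted p was 0.0523 at the same difference. The median over members was 0.067 when probe sets were averaged per gene, and 0.069 to 0.11 when an array was left out. Chaperone medians were −0.043 without the suffixed probe sets, 0.077 with array weights, 0.066 with averaged probe sets and 0.071 to 0.13 when an array was left out. The translocon median was 0.14 without the suffixed probe sets and 0.036 to 0.11 when an array was left out. The cause of these shifts was not tested.

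Same-numbered arrays of the 2 groups did not deviate together (correlations 0.0541, −0.00247 and 0.0704). A fit with the replicate number as block called 1 member probe set higher, HSPA5, while RPN2 (adjusted p = 0.0589), TMED2 (0.0570) and PRDX4 (0.0565) were lost. PRDX4 was also lost with cyclic loess (0.0501), without the suffixed probe sets (0.0579) and with averaged probe sets (0.0623). Over all genes, 93 higher and 55 lower calls became 38 and 21 without the suffixed probe sets, 73 and 26 with averaged probe sets, 107 and 96 with array weights, and 50 to 89 and 25 to 65 when an array was left out.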
